A study of Arabidopsis thaliana with 20 samples.

Results

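The genes described here were chosen for values near WT in Arabidopsis roots labelled as single mutants of the transcription factors ARR1, ARR10, and ARR12, lower values in the double mutants arr1/10 and arr1/12, and low values in the triple mutant arr1/10/12. Members were chosen by their values. A probe had to be well above background on both WT arrays and lie within 0.5 of WT on the log2 scale in each of arr1, arr10, and arr12. It also had to be at or below -0.5 in both arr1/10 and arr1/12, at or below -1 in arr1/10/12, and less than 1 higher in CK-treated than in mock-treated WT. Of 43603 probes, 403 met the rule. All 403 were among the 34033 probes tested, 260 could be paired with a gene, and 143 are known only by their probe. The rule did not use arr10/12, and it used mock-treated WT only as the baseline of the CK condition.

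Type-B response regulators such as ARR1, ARR10, and ARR12 are the DNA-binding end of cytokinin (CK) signaling. CK receptors pass phosphate through carrier proteins to these regulators, which then bind and switch on their target genes, among them the type-A response regulators that feed back on the pathway. In roots, CK is best known for setting the size of the meristem, the timing of differentiation, and the identity of vascular cells. Root hairs are single epidermal cells that grow out by tip growth, and their genes form a well studied set with a known order from transcription factors to wall enzymes.

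Root RNA of 10-day-old seedlings grown on agar plates was hybridized to one-colour Agilent arrays, 2 biological replicates for each of 10 groups. The untreated groups were the triple mutant arr1/10/12, the double mutants arr1/10, arr1/12, and arr10/12, the single mutants arr1, arr10, and arr12, and WT. The other groups were WT treated for 1 hour with 5 μM N6-benzyladenine, a CK, and WT treated for 1 hour with mock. The mutants carry the T-DNA alleles arr1-3, arr10-5, and arr12-1, alone or combined, in the Col-0 background, and each is 1 line. Seedlings were grown upright under continuous light, and whole roots were cut off, so these are bulk samples in which fewer cells of a type and less RNA per cell cannot be told apart.

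The arrays of replicate 1 of all 8 untreated groups shared a slide, as did those of replicate 2, with the single mutants and WT on one part of each slide and the double and triple mutants on the other part. The step between the single and the double mutants and the part of the slide therefore cannot be told apart, whereas the double and triple mutants shared a part. Each mock and CK array lay on a slide of its own. Values on single arrays are normalized log2 intensities, replicate 1 before replicate 2, and differences from WT are differences of their means. On the arrays labelled arr1 the probe of ARR1 was not lower than in WT. It had log2 intensities of 7.58 and 7.74 in arr1/10/12, 8.14 and 8.28 in arr1/10, with 7.83 and 7.94 in arr1/12 and 12.27 and 12.52 on the arrays labelled arr1, against 11.99 and 12.01 in WT. ARR10 had 4.74 to 8.57 on the arrays of the mutants that name it, against 13.59 and 13.25 in WT, and ARR12 had 3.63 to 5.74, against 11.79 and 11.72 in WT. What loss of ARR1 alone does is therefore not shown.

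**Figure D1:**
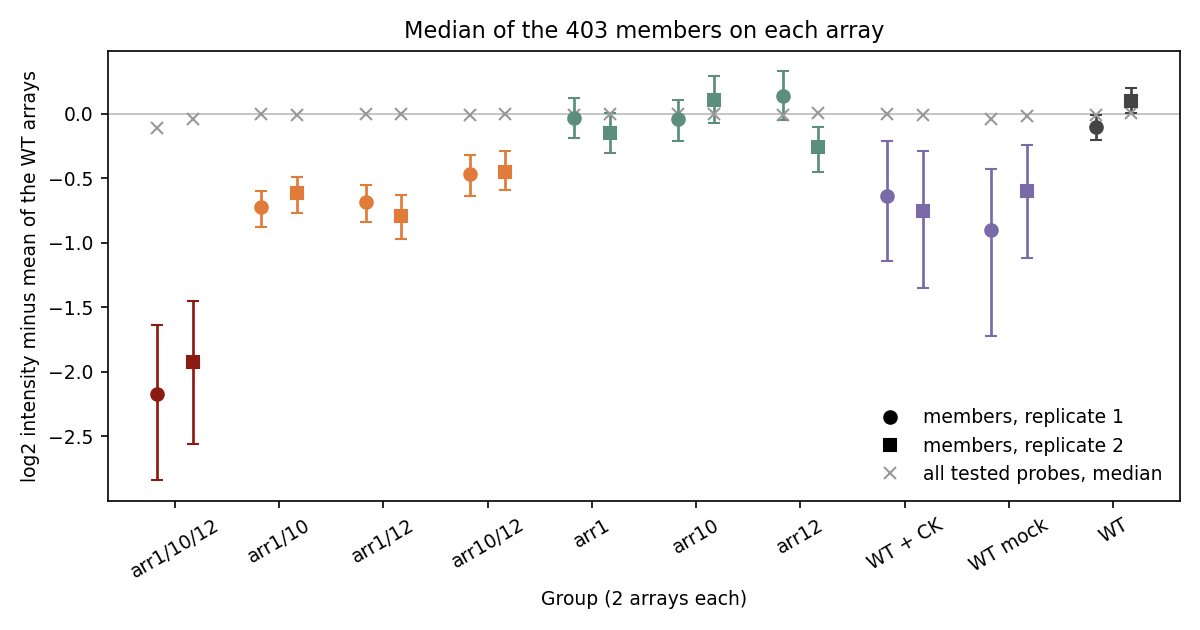
Each symbol is the median over the 403 members of log2 intensity minus the mean of the WT arrays on 1 array, with bars from the lower to the upper quartile, and crosses give the median over all tested probes. The medians lie at -2.17 and -1.92 in arr1/10/12, between -0.79 and -0.45 in the double mutants, between -0.26 and 0.14 in the single mutants, and at -0.90 and -0.60 in mock-treated WT.

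The values that chose the members are given as a description. Over the 403 members the median log2 difference from WT was -2.0 in arr1/10/12, with a range from -7.47 to -1.04. The other medians were -0.65 for arr1/10, -0.71 for arr1/12, -0.10 for arr1, 0.03 for arr10, and -0.07 for arr12. Over all tested probes the median was -0.08 in arr1/10/12 and -0.01 in each of the other untreated mutants. The mean over the 3 double mutants came to 31.5% of the log2 difference in arr1/10/12 for the median member. In 400 members arr1/10/12 lay below every double mutant, and in 3 it did not.

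Those 3 exceptions were AT4G33610, which encodes a glycine-rich protein, AT5G55770, which encodes a DC1 domain protein, and the unpaired probe A_84_P511975, all named for this exception after their values were seen. A_84_P511975 had 6.86 on both arrays of arr1/10/12, 7.14 and 7.07 in arr1/10, with 6.67 and 6.78 in arr1/12 and 11.75 and 11.67 in arr10/12, against 11.70 and 11.53 in WT. Its 6 single-mutant arrays lay between 11.58 and 11.98. This probe was low in the same groups as the ARR1 probe, and the loss of a further ARR in arr1/10/12 was not followed by a lower value than in arr1/12.

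Members lay close to the thresholds in number. In arr1/10 the probe nearest inside was A_84_P24136 at -0.501 and the nearest outside was CYP708A2 at -0.499. In arr1/10/12 the nearest inside was AT4 at -1.037 and the nearest outside A_84_P825103 at -0.994. The limit in arr1/10 alone kept out 216 probes, the limit in arr1/12 alone 163, the limit in arr1/10/12 alone 316, and the CK limit alone 104. No gap separated the members from the probes outside the limits. For the single mutants the nearest inside were SCRL28 at -0.495 in arr1, AT4G25790 at 0.485 in arr10, and AT4G09120 at -0.477 in arr12. The nearest outside were A_84_P826016 at -0.504, A_84_P10359 at 0.531, and A_84_P289964 at -0.501. Fewer probes were kept out by these limits alone, with 24 in arr1, 7 in arr10, and 24 in arr12.

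**Figure D2:**
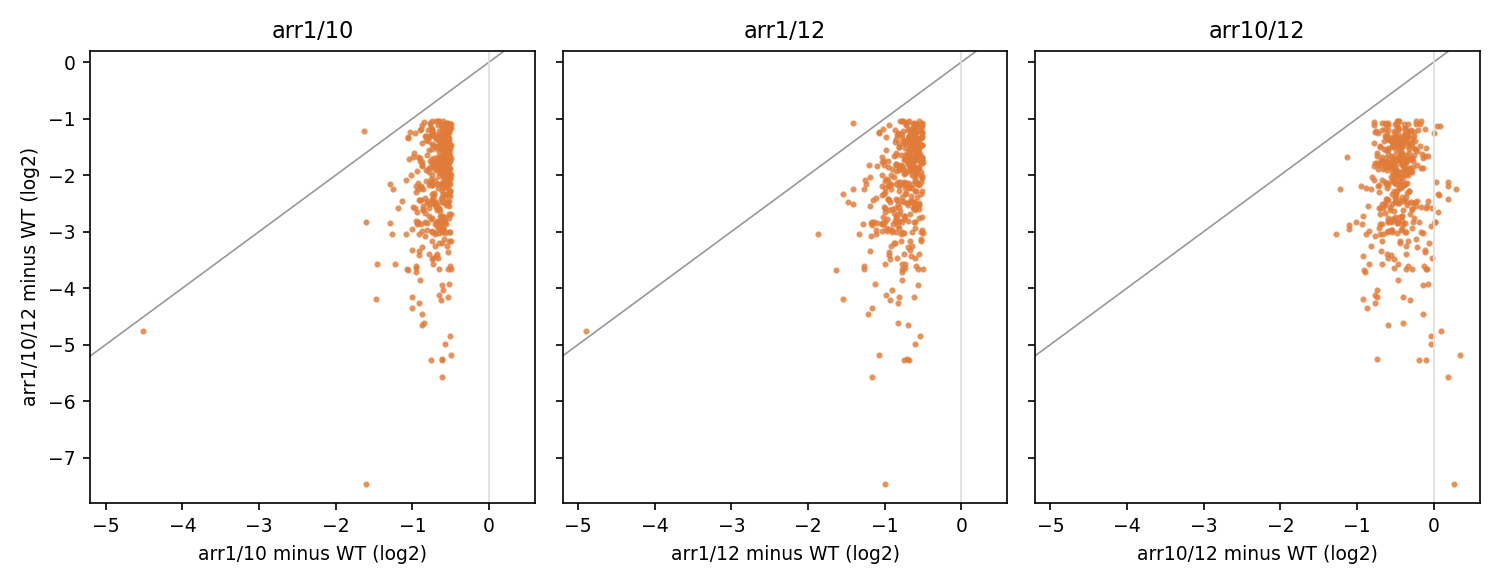
Each dot is 1 of the 403 members, with its log2 difference from WT in a double mutant on the horizontal axis and in arr1/10/12 on the vertical axis, and the line marks equal values. Most dots lie far below the line in all 3 panels, and those for arr10/12, which the rule did not use, lie between -1.27 and 0.34.

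The double mutant arr10/12 is the one untreated mutant whose values the rule did not use, although its comparison shares the WT arrays with the rule. Its arrays also share a part of each slide with arr1/10 and arr1/12, which the rule used, and lie apart from WT. Genotype and part of the slide cannot be told apart in this comparison. Nearly all members had values below WT in arr10/12, but few passed the test one by one. Their median log2 difference was -0.46, with quartiles at -0.60 and -0.34, against -0.01 over all tested probes. Of the 403 members, 386 lay below WT and 17 above it, and 171 were at or below -0.5. On the slide of replicate 1 the median was -0.35 with 377 members below WT, against 50.7% of tested probes. On the slide of replicate 2 it was -0.56 with 389 below WT, against 51.4%. At a limma adjusted p under 0.05, 1 member was called lower and none higher in arr10/12. Of all tested probes 0.0911% were called lower and 0.214% higher. An unadjusted limma p under 0.05 was found for 149 members and for 5443 of the 34033 tested probes. With replicate as a block, 10 members were called lower, and the calls over all tested probes also increased, with 189 called lower under the block and 31 without it. With the 6 single-mutant arrays in place of WT, a comparison chosen after the data were seen, the median was -0.43 and 2 members were called lower and none higher, against 0.0793% and 0.191% of tested probes.

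Both arr10/12 arrays lay below all 8 arrays of WT and the single mutants for 199 members, against 6.83% of tested probes, and these 8 arrays also took part in the choice. Among the 3 double mutants arr10/12 was the highest for 357 members, arr1/10 for 23, and arr1/12 for 23. That order is fixed in part by the rule, which set a limit for the other double mutants but not for arr10/12. The lowest double mutant was arr1/12 for 269 members, arr1/10 for 116, and arr10/12 for 18.

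The member called in arr10/12 was MOT1, a molybdate transporter of the root, named because it was the only one. MOT1 had 8.54 and 8.58 in arr1/10/12, 10.14 and 10.20 in arr1/10, with 9.93 and 9.97 in arr1/12 and 9.98 and 10.07 in arr10/12, against 10.84 and 10.67 in WT. Both arr10/12 arrays were below all 8 WT and single-mutant arrays, the lowest of which was 10.37. The log2 difference in arr10/12 was -0.73 (standard error 0.10, limma adjusted p = 0.00642), and -1.15 in mock-treated WT (limma adjusted p = 9.98e-06).

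The 5 paired members that were lowest in arr10/12 had low signals. AT1G57835, of no known function, had 2.37 and 2.83 in arr1/10/12, 4.18 and 4.58 in arr1/10, with 4.30 and 3.26 in arr1/12 and 3.97 and 4.79 in arr10/12, against 5.48 and 5.82 in WT. AT3G52530, a protein kinase family gene, had 2.65 and 3.19 in arr1/10/12, 3.59 and 4.23 in arr1/10, with 3.67 and 3.85 in arr1/12 and 3.74 and 4.17 in arr10/12, against 4.68 and 5.67 in WT. In both genes the arr10/12 arrays lay below both WT arrays, and the signal was not well above background on either array of arr1/10/12. Only bounds can be given for such probes, where the lowest signal well above background on an array stands in for the dim value, which put AT1G57835 at least 3.82-fold and AT3G52530 at least 2.75-fold lower in arr1/10/12 than in WT.

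AT5G24200, annotated as a triacylglycerol lipase, had 5.45 and 3.32 in arr1/10/12, 5.11 and 5.15 in arr1/10, with 5.66 and 5.42 in arr1/12 and 4.75 and 5.10 in arr10/12, against 5.88 and 6.24 in WT. Of its 2 arr1/10/12 arrays, that at 5.45 lay within the range of the double-mutant arrays and that at 3.32 lay below all of them. For 1 of the 2 the signal was not well above background. AT4G22640, of unknown function, had 4.77 and 6.05 in arr1/10/12, 7.21 and 7.49 in arr1/10, with 7.45 and 7.39 in arr1/12 and 7.13 and 7.37 in arr10/12, against 8.12 and 8.61 in WT. SCRL28, a small secreted cysteine-rich protein, had 2.30 on both arrays of arr1/10/12, 3.95 and 5.14 in arr1/10, with 4.09 and 3.96 in arr1/12 and 4.15 and 4.01 in arr10/12, against 4.75 and 5.62 in WT. SCRL28 was not well above background in arr1/10/12 and at least 2.77-fold lower there. The log2 differences of these 5 genes in arr10/12 ran from -1.27 to -1.11, with standard errors of 0.37 to 0.58, and none passed the test (limma adjusted p from 0.179 to 0.325). They were smaller with normexp background correction, from -0.82 for AT4G22640 to -0.39 for SCRL28, and with the authors' table, from -0.89 for AT4G22640 to -0.55 for AT1G57835.

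The 5 paired members that were highest in arr10/12 lay above WT there, although all had low values in arr1/10/12. AT5G37990, annotated as a methyltransferase, had 7.21 and 8.68 in arr1/10/12, 12.64 and 12.60 in arr1/10, with 12.26 and 11.84 in arr1/12 and 13.59 and 13.35 in arr10/12, against 13.29 and 12.97 in WT. Its neighbor on chromosome 5, AT5G38000, an oxidoreductase gene, had 8.41 and 9.42 in arr1/10/12, 10.54 and 10.89 in arr1/10, with 10.44 and 10.53 in arr1/12 and 11.63 and 11.44 in arr10/12, against 11.22 and 11.48 in WT. A further oxidoreductase gene, AT5G37940, had 9.59 and 10.27 in arr1/10/12, 11.54 and 11.59 in arr1/10, with 11.36 and 11.14 in arr1/12 and 12.54 and 12.17 in arr10/12, against 12.30 and 12.27 in WT. For each of these 3 genes all arrays of arr1/10 and arr1/12 lay below both WT arrays, while those of arr10/12 overlapped WT or lay above it.

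AT2G16005, which encodes an ML domain lipid recognition protein, had the largest difference from WT of all members in arr1/10/12, at -7.47, and its size rests on 1 array. It had 3.01 and 9.29 in arr1/10/12, 11.95 and 12.07 in arr1/10, with 12.95 and 12.28 in arr1/12 and 14.12 and 13.62 in arr10/12, against 13.70 and 13.53 in WT. Only 1 of the 2 arr1/10/12 arrays was well above background, and they differ by more than the 2 arrays of any other group. RSH4, a root hair specific gene, had 3.17 and 3.63 in arr1/10/12, 4.27 and 5.16 in arr1/10, with 4.77 and 3.98 in arr1/12 and 6.52 and 5.36 in arr10/12, against 5.81 and 5.48 in WT, with a bound of at least 3.81-fold lower in arr1/10/12. The 2 arr10/12 arrays of RSH4 lay on either side of WT. The log2 differences of these 5 genes in arr10/12 were 0.07 to 0.34, and none passed the test (limma adjusted p from 0.667 to 0.952).

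**Figure D3:**
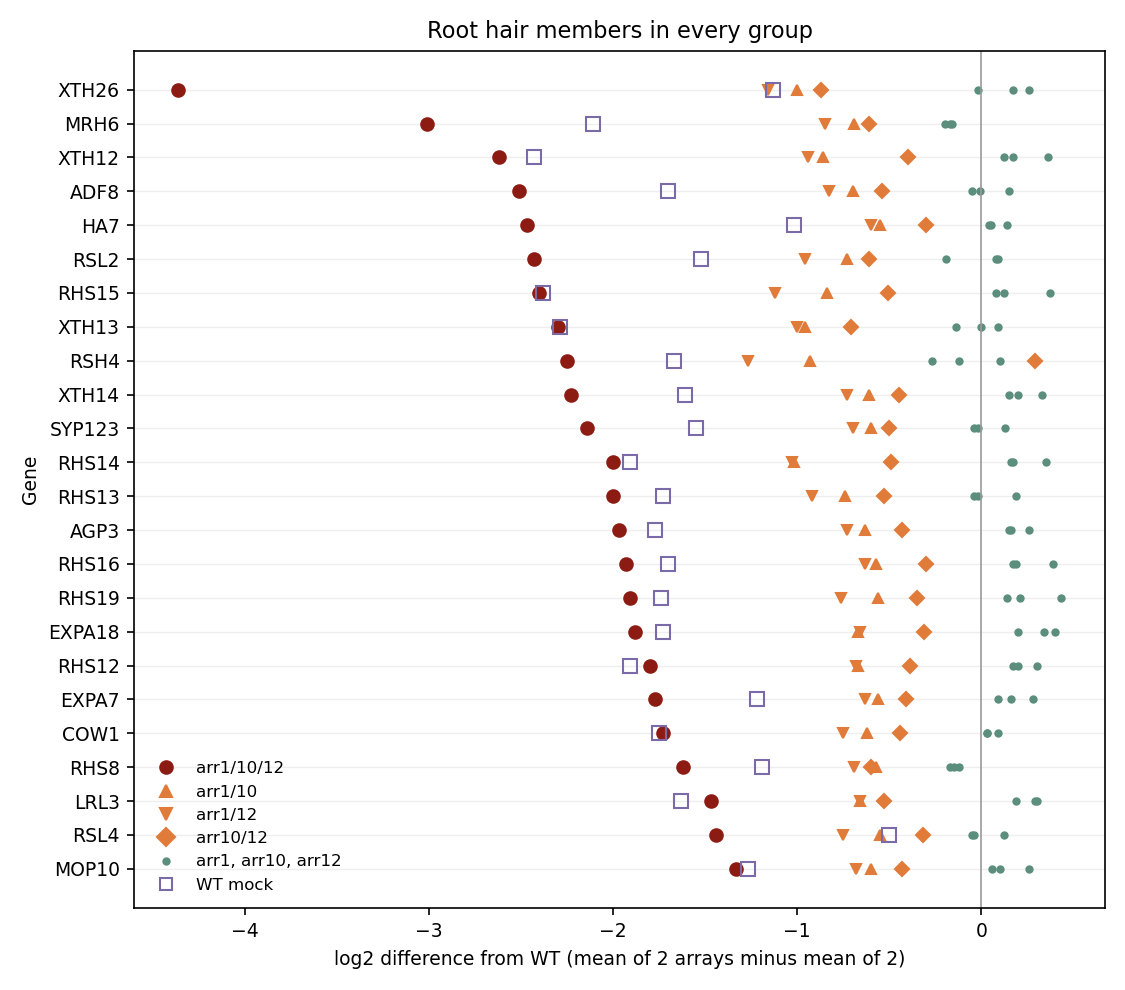
For the 24 root hair members the horizontal axis gives the log2 difference from WT, as the mean of 2 arrays minus the mean of the 2 WT arrays (1 array where an outlier spot was left out). Single mutants lie near 0, double mutants between -1.27 and -0.30 except for RSH4 in arr10/12 at 0.29, and mock-treated WT lies from -2.43 to -0.50, below arr10/12 for all 24 genes.

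Genes of root hair growth made up the largest of the lists among the members. Of 49 genes listed, 32 could be paired and tested, and 24 were members. All 32 come from a gene table that the study compiled from changed genes, so their number among the members is not independent evidence of a direction. The median log2 difference of the 24 was -2.0 in arr1/10/12, -0.67 in arr1/10, -0.75 in arr1/12, and -0.44 in arr10/12. In the single mutants it was 0.09 for arr1, 0.26 for arr10, and 0.07 for arr12. None of the 32 was called in arr10/12. Of the 8 that were not members, all 8 were called lower in arr1/10/12 (limma, where 31.1% of tested probes were called lower). The 1763 paired genes that were not members had a median of -1.15 there, against -0.08 over all tested probes. The calls of the 8 are therefore no independent evidence of a direction either, and the same holds for the paired genes of the other lists.

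Listed root hair genes without a pairing could not be examined. The root hair members range from transcription factors to genes of tip growth and wall enzymes. They include the transcription factors RSL2, RSL4, and LRL3, basic helix-loop-helix proteins that drive hair growth. RSL4 had 10.52 and 10.63 in arr1/10/12, 11.38 and 11.55 in arr1/10, with 11.27 and 11.25 in arr1/12 and 11.67 and 11.71 in arr10/12, against 11.88 and 12.14 in WT. All 8 arrays of the double and triple mutants were below both WT arrays. RSL2 differed from WT by -2.43 in arr1/10/12 and -0.61 in arr10/12, and LRL3 by -1.47 and -0.53. Among the genes of tip growth itself, COW1, a phosphatidylinositol transfer protein needed for hair growth, differed by -1.73 in arr1/10/12, SYP123, a syntaxin of the hair tip, by -2.14, and ADF8, an actin depolymerizing factor, by -2.51.

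Of the 24 genes XTH26 had the largest difference from WT in arr1/10/12, at -4.36. It encodes a xyloglucan endotransglucosylase, an enzyme that cuts and rejoins wall xyloglucan. It had 6.71 and 6.91 in arr1/10/12, 10.02 and 10.35 in arr1/10, with 10.18 and 9.85 in arr1/12 and 10.48 and 10.13 in arr10/12, against 10.89 and 11.46 in WT, which put arr1/10/12 20.6-fold below WT. Its 6 single-mutant arrays lay between 10.92 and 11.77. XTH12, of the same family, had 8.10 and 8.76 in arr1/10/12, 10.08 and 10.29 in arr1/10, with 10.18 and 10.03 in arr1/12 and 10.66 and 10.64 in arr10/12, against 10.85 and 11.24 in WT. MRH6, a gene required for hair shape, had 9.08 and 9.38 in arr1/10/12, 11.41 and 11.69 in arr1/10, with 11.46 and 11.32 in arr1/12 and 11.55 and 11.71 in arr10/12, against 12.19 and 12.29 in WT. For all 3 genes both arrays of each double mutant lay below both WT arrays and above both arr1/10/12 arrays. The log2 differences in arr10/12 were -0.87 for XTH26, -0.40 for XTH12, and -0.61 for MRH6, and none passed the test (limma adjusted p = 0.202, 0.610, and 0.233).

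Of the 8 paired root hair genes that were not members, 4 were kept out by the CK condition. They were AT2G14760 at 1.46, RHS2 at 2.37, AT5G43175 at 1.74, and RHS18 at 1.22 log2 units higher in CK-treated than in mock-treated WT. RSH3 (-0.49 in arr1/10), MES15 (-0.35), RSH2 (-0.45), and RHS10 (-0.32) were less than 0.5 below WT in arr1/10.

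Mock-treated WT gave a second WT level that the limits on the mutants did not use. About as many members were called lower in mock-treated than in untreated WT as were not called, and the root hair members had larger differences than the other members at the median. Of the 403 members, 198 were called lower and 2 higher in mock-treated WT (limma), which is 49.1% called lower against 8.59% of all tested probes, of which 7.18% were called higher. The median log2 difference was -0.72, against -0.03 over all tested probes, and 369 members lay below WT. Both mock arrays were below both WT arrays for 304 members, against 29.9% of tested probes. The 2 members called higher were ATOCT3, an organic cation transporter, by 1.38 (limma adjusted p = 0.00182), and the probe A_84_P843281, by 0.34. These WT arrays also took part in the choice of members. With the 6 single-mutant arrays in their place, 212 members were called lower and 11 higher, against 14.2% and 10.6% of tested probes. Without WT replicate 2 the count called was 115, and without mock replicate 1 it was 118. Mock treatment and slide cannot be told apart here.

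**Figure D4:**
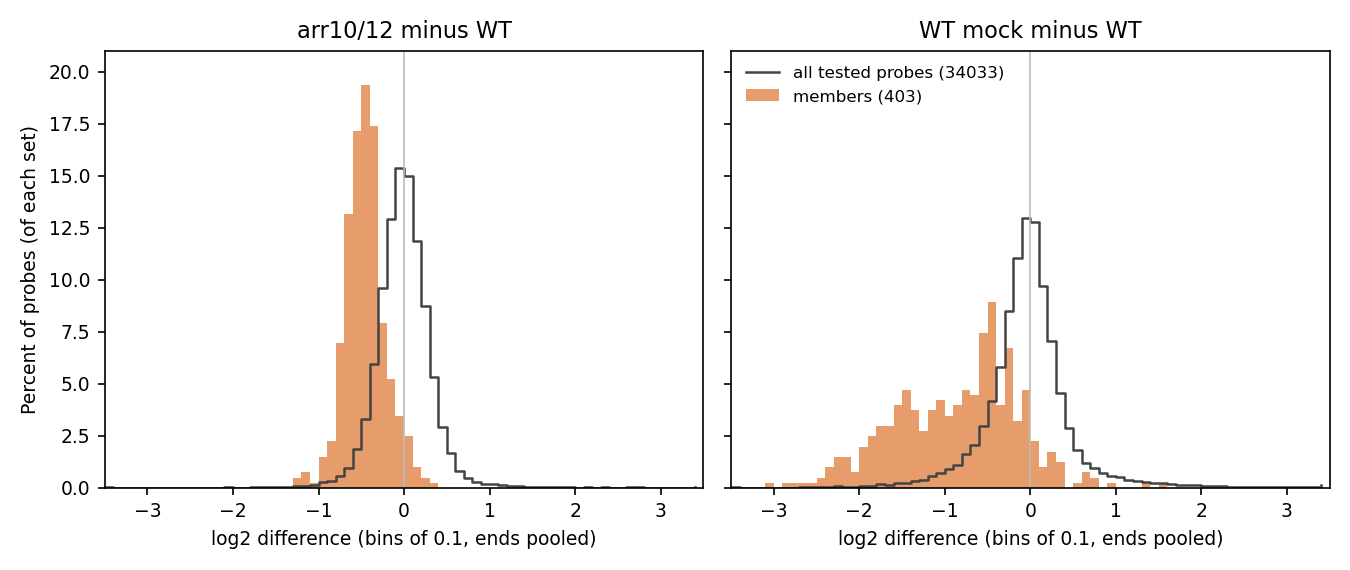
Bars give the percent of the 403 members and lines the percent of all 34033 tested probes in bins of the log2 difference from WT, for arr10/12 and for mock-treated WT. The members form a narrow peak with a median of -0.46 in arr10/12 and a wide spread with a median of -0.72 in mock-treated WT.

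Among the root hair members, 23 of 24 were called lower in mock-treated than in untreated WT, with a median log2 difference of -1.70, and all 24 against the single mutants. The median over the other 379 members was -0.69, with 175 of them called lower. All root hair members are paired, and 58.8% of the 260 paired members were called lower, against 31.5% of the 143 unpaired members. With 1 array left out in turn, 16 to 22 of the 24 were called. The member that was not called was XTH26, with 10.04 on the 1 mock array that gave a value, against 10.89 and 11.46 in WT (limma adjusted p = 0.06), although it was called with outlier spots kept (limma adjusted p = 0.0181), with normexp (limma adjusted p = 0.0462), and without WT replicate 1 (limma adjusted p = 0.0492). The listed root hair gene RSH2, which is no member, was called higher by 0.90 (limma adjusted p = 0.00933). MRH6 had 9.72 and 10.53 in mock-treated WT, against 12.19 and 12.29 in WT (log2 difference -2.11, standard error 0.23, limma adjusted p = 6.84e-05). XTH12 had 7.98 and 9.25 in mock-treated WT, against 10.85 and 11.24 in WT (limma adjusted p = 0.000468). AGP3, which encodes an arabinogalactan protein, had 13.82 and 14.42 in mock-treated WT, against 15.85 and 15.93 in WT (limma adjusted p = 0.000231). For these 3 genes no mock array reached the lowest of the 6 arrays of the double mutants. RSL4 differed by -0.50, with 11.33 and 11.70 in mock-treated WT against 11.88 and 12.14 in WT (limma adjusted p = 0.0353).

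The comparison of arr10/12 with mock-treated WT uses no untreated WT array. There the members were on balance higher in the mutant, with a median log2 difference of 0.32, against 0.06 over all tested probes. Of the 403 members, 102 were called higher and 10 lower (limma), against 5.44% and 6.08% of tested probes. Among the 24 root hair members 17 were called higher and none lower, and all 24 lay above mock-treated WT. Without arr10/12 replicate 1, arr10/12 replicate 2, or mock replicate 1 the count called in either direction was 62, 54, or 43. As a description, the median member lay 0.03 above mock-treated WT in arr1/10 and 0.01 above it in arr1/12, and 1.08 below it in arr1/10/12. The triple mutant was below mock-treated WT for 383 members. The members' median level in arr1/10 and arr1/12 was thus below that of untreated WT and close to that of mock-treated WT.

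The rule limits a rise after CK. The members' median difference between CK-treated and mock-treated WT was 0.11, against 0.03 over all tested probes, with 249 members above 0 and 154 below. Of the root hair members, 22 of 24 lay above mock-treated WT after CK, with a median of 0.37. Array by array, the root hair medians minus untreated WT were -2.07 and -1.33 for mock and -1.37 and -1.54 for CK. Both CK medians thus lay between those of the mock arrays and below untreated WT.

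**Figure D5:**
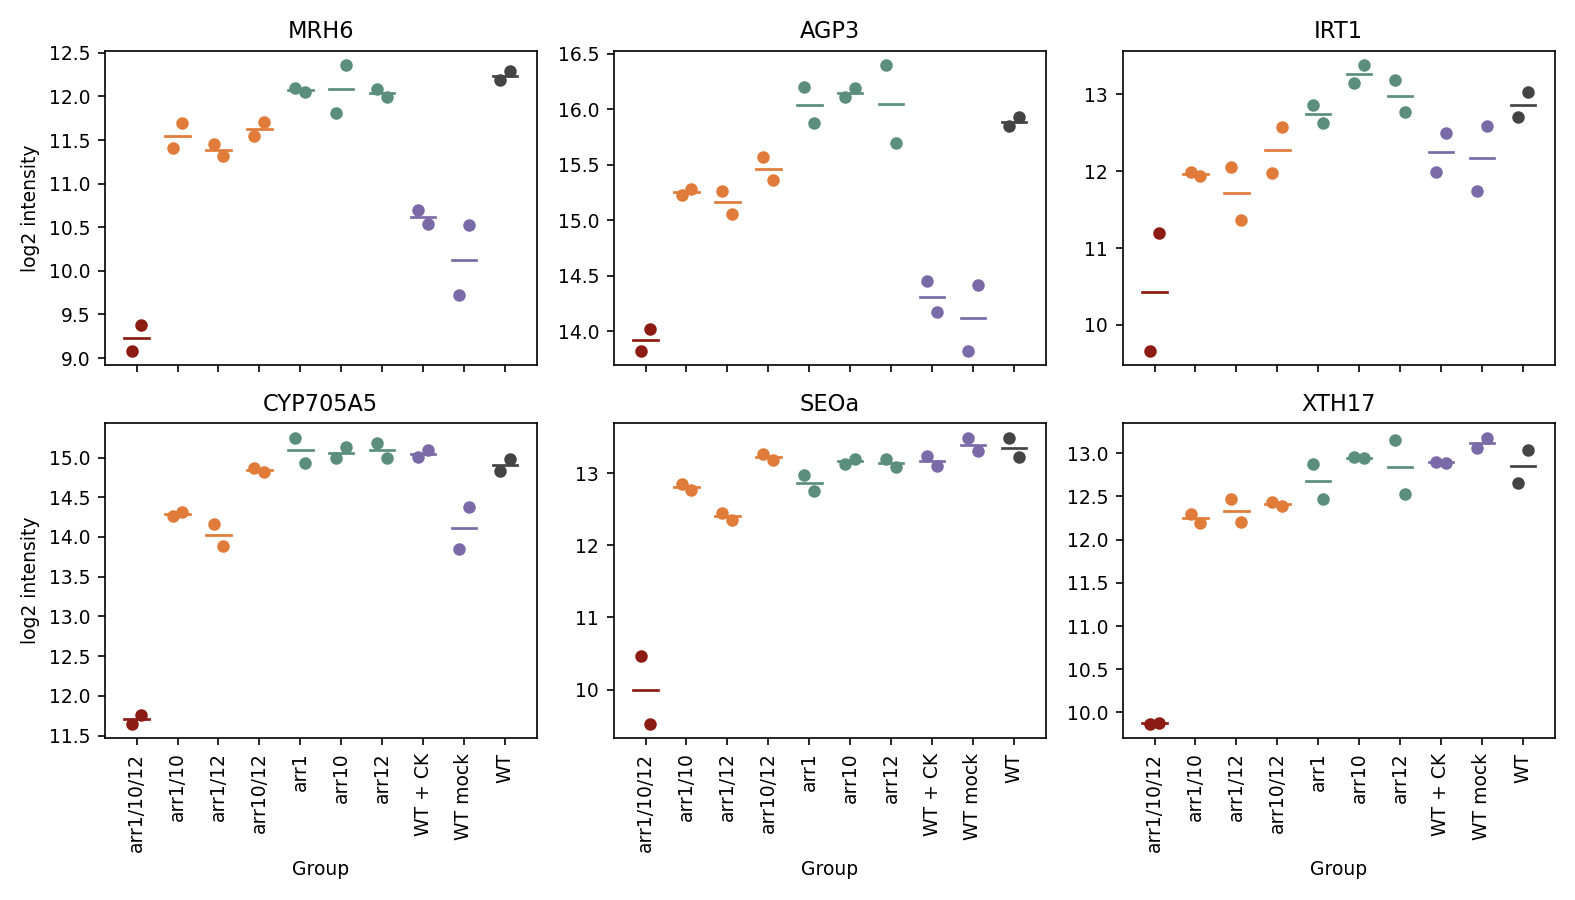
Each panel gives the log2 intensity of 1 gene on the 20 arrays, with dots for replicate 1 and replicate 2 from left to right and lines for group means. MRH6 and AGP3 are lower on both mock arrays than in untreated WT, SEOa and XTH17 are not, and the mean of all 6 genes is lowest in arr1/10/12.

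Expansins and xyloglucan endotransglucosylases loosen and remodel walls. Of 32 listed genes 11 were tested and 8 were members. Of the 8, 6 are root hair genes named above or in the plot of the root hair members, and EXPA4 and XTH17 are not on that list. XTH17 had 9.87 and 9.88 in arr1/10/12, 12.30 and 12.19 in arr1/10, with 12.47 and 12.20 in arr1/12 and 12.44 and 12.39 in arr10/12, against 12.66 and 13.04 in WT. In mock-treated WT it had 13.06 and 13.18, above both WT arrays (log2 difference 0.27, limma adjusted p = 0.395). EXPA4 differed from WT by -2.32 in arr1/10/12 and -0.42 in mock-treated WT.

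Iron uptake gave 3 members among 6 tested genes. IRT1, the main iron transporter of the root surface, had 9.66 and 11.19 in arr1/10/12, 11.99 and 11.94 in arr1/10, with 12.06 and 11.37 in arr1/12 and 11.98 and 12.58 in arr10/12, against 12.70 and 13.03 in WT. The 2 arr1/10/12 arrays differ by more than the double mutants differ from WT. MYB10, a regulator of the response to low iron, had 8.19 and 9.24 in arr1/10/12, 9.32 and 9.69 in arr1/10, with 9.67 and 9.55 in arr1/12 and 9.80 and 10.24 in arr10/12, against 10.04 and 10.37 in WT. GRF11, a 14-3-3 protein, had 8.59 and 9.37 in arr1/10/12, 9.05 and 9.39 in arr1/10, with 9.22 and 9.05 in arr1/12 and 9.06 and 9.55 in arr10/12, against 9.90 and 10.28 in WT. For GRF11 the arrays of arr1/10/12 and the double mutants overlapped, so a further step in the triple mutant was not visible. In mock-treated WT GRF11 was called lower, with 7.89 and 8.81 (limma adjusted p = 0.00226), while IRT1 with 11.74 and 12.59 and MYB10 with 9.64 and 10.12 were not (limma adjusted p = 0.332 and 0.548). Of the other 3 iron genes, IRT2, a relative of IRT1, missed the rule only by its CK response of 1.55. In arr1/10/12 it was called lower, PDR9, a transporter, was called higher by 0.92, and BHLH038, a regulator of iron uptake, was not called at 0.42.

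The aquaporins, water channels of the vacuole and plasma membrane, gave 3 members among 7 tested genes. DELTA-TIP had 10.85 and 10.16 in arr1/10/12, 11.29 and 11.39 in arr1/10, with 11.30 on both arrays of arr1/12 and 11.95 and 11.85 in arr10/12, against 12.21 and 12.10 in WT. TIP2 had 8.96 and 9.16 in arr1/10/12, 9.54 and 9.66 in arr1/10, with 9.70 and 9.71 in arr1/12 and 9.71 and 9.80 in arr10/12, against 10.23 and 10.52 in WT. PIP3 had 8.66 and 8.64 in arr1/10/12, 8.90 and 9.21 in arr1/10, with 9.02 and 9.41 in arr1/12 and 9.19 and 9.70 in arr10/12, against 9.62 and 10.02 in WT. In all 3 the arr1/10/12 arrays were the lowest of the untreated arrays, and for PIP3 the arr10/12 arrays overlapped WT. In mock-treated WT, TIP2 with 9.42 and 9.71 and PIP3 with 8.79 and 9.36 were called lower (limma adjusted p = 0.0207 and 0.0421), and DELTA-TIP with 11.50 and 11.84 was not (limma adjusted p = 0.227). Neither TIP2 nor PIP3 was called without WT replicate 2 (limma adjusted p = 0.15 and 0.271) or without mock replicate 1 (0.161 and 0.339 by limma), and PIP3 was not called with the authors' table (limma adjusted p = 0.0552), with normalization within each experiment (0.0517), with no filter on dim probes (0.0592), or with array weights (0.08).

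CYP705A5, a P450 of the thalianol gene cluster that makes root triterpenes, was the 1 member among 5 tested genes of the thalianol and marneral clusters. It had 11.65 and 11.76 in arr1/10/12, 14.26 and 14.32 in arr1/10, with 14.16 and 13.89 in arr1/12 and 14.87 and 14.82 in arr10/12, against 14.83 and 14.98 in WT. The arr10/12 arrays overlapped WT, while both other double mutants lay below it. In mock-treated WT it had 13.85 and 14.38 (log2 difference -0.79, limma adjusted p = 0.00550), a call lost without WT replicate 2 (limma adjusted p = 0.0511) or mock replicate 1 (limma adjusted p = 0.0634). Its cluster neighbor CYP708A2 missed the rule at -0.499 in arr1/10, and all 4 tested genes of the clusters that were not members were called lower in arr1/10/12.

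Marker genes of the vascular tissues were few. CTL2 and IRX9 belong to secondary wall formation in the xylem. CTL2 had 12.24 and 12.31 in arr1/10/12, 13.20 and 13.42 in arr1/10, with 13.27 and 13.26 in arr1/12 and 13.54 and 13.71 in arr10/12, against 13.65 and 14.03 in WT. IRX9 had 10.08 and 9.69 in arr1/10/12, 10.62 and 10.51 in arr1/10, with 10.57 and 10.33 in arr1/12 and 10.98 and 10.82 in arr10/12, against 11.11 and 11.09 in WT. For both, arr1/10 and arr1/12 lay below both WT arrays, and arr10/12 lay closer to WT. CTL2 was near the threshold in mock-treated WT with 13.33 and 13.50 (limma adjusted p = 0.0481), a call lost with 75th percentile scaling, the authors' table, normalization within each experiment, no filter on dim probes, or array weights (limma adjusted p from 0.0642 to 0.081), and without WT replicate 2, mock replicate 1, or mock replicate 2 (limma adjusted p = 0.36, 0.273, and 0.0659). IRX9 with 10.89 and 10.78 did not (limma adjusted p = 0.237).

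SEOa, a protein of the phloem sieve elements, was 10.46 and 9.53 in arr1/10/12, 12.85 and 12.77 in arr1/10, with 12.45 and 12.35 in arr1/12 and 13.27 and 13.18 in arr10/12, against 13.48 and 13.22 in WT. It differed from the root hair members in mock-treated WT, where it had 13.49 and 13.30 and overlapped WT (log2 difference 0.05, limma adjusted p = 0.928). The other 2 phloem genes tested, SEOR1 and APL, were called lower in arr1/10/12 without meeting the rule. No gene on the lists for root cap, non-hair epidermis, dividing cells, or green tissue was paired with a probe, so these cell types were not analysed here.

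None of the 15 tested genes of CK signaling and metabolism was a member. They too come from the table of changed genes, and all 15 were called lower in arr1/10/12 (limma, against 31.1% of tested probes), 3 of them being ARR1, ARR10, and ARR12 themselves. Paired genes outside the members had a median of -1.15 in arr1/10/12, so these calls are no independent evidence of a direction. Of the type-A regulators tested, ARR6 and ARR4 met every condition but that on CK. ARR6 differed from WT by -0.76 in arr1/10, -0.84 in arr1/12, and -3.69 in arr1/10/12, and was 2.28 higher in CK-treated than in mock-treated WT. Others failed on the mutants, such as ARR3 with -0.20 in arr1/10 and ARR7 with -0.83 in arr1. The CK condition removed 104 probes in all. Their median was -2.78 in arr1/10/12, -0.46 in arr10/12, and -1.26 in mock-treated WT.

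Of the 5 paired members with the highest WT signals, 4 had arr1/10/12 below every double mutant and these below WT on both replicates, and AT4 did not. AT3G25930, a universal stress protein gene, had 14.78 and 14.32 in arr1/10/12, 16.18 and 16.15 in arr1/10, with 16.30 and 15.94 in arr1/12 and 16.22 and 16.26 in arr10/12, against 16.71 and 16.68 in WT. AT5G14330, of unknown function, had 14.55 and 14.95 in arr1/10/12, 15.77 and 15.92 in arr1/10, with 15.85 and 15.68 in arr1/12 and 15.97 and 16 in arr10/12, against 16.34 and 16.59 in WT. AT4G30670, also of unknown function, had 14.59 and 14.63 in arr1/10/12, 15.57 and 15.41 in arr1/10, with 15.64 and 15.31 in arr1/12 and 15.64 and 15.50 in arr10/12, against 16.22 and 16.10 in WT. In these 3 genes both arrays of every double mutant lay below both WT arrays, and in mock-treated WT all 3 were called lower, with 15.56 and 15.38 for AT3G25930, 15.38 and 15.74 for AT5G14330, and 15.21 and 15.37 for AT4G30670 (limma adjusted p = 0.00123, 0.00701, and 0.0187). Without WT replicate 2 or mock replicate 1 the calls of AT5G14330 (limma adjusted p = 0.069 and 0.0815) and AT4G30670 (limma adjusted p = 0.0667 and 0.123) were lost, and that of AT4G30670 also without WT replicate 1 (limma adjusted p = 0.0897).

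AGP3 had 13.82 and 14.02 in arr1/10/12, 15.23 and 15.28 in arr1/10, with 15.26 and 15.06 in arr1/12 and 15.57 and 15.36 in arr10/12, against 15.85 and 15.93 in WT. AT4, an RNA induced by phosphate starvation, had 14.36 and 15.19 in arr1/10/12, 15.38 and 14.85 in arr1/10, with 15.03 and 15.06 in arr1/12 and 16.03 and 15.27 in arr10/12, against 16.03 and 15.59 in WT. The groups of AT4 overlapped, its arr1/10/12 value of -1.04 was the one nearest to the limit, and its arr10/12 arrays lay 0.76 apart.

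Grouped by the words of their annotation, 66 of 494 tested genes described as unknown were members, against 260 of all 2023 tested genes with a pairing. Members included 5 of 19 peroxidase genes, 3 of 15 basic helix-loop-helix genes, 11 of 67 kinase genes, 10 of 46 zinc finger genes, 5 of 18 transporter genes, and 4 of 18 pectin genes. They also included 4 of 7 extensin or arabinogalactan genes. The kinase members had a median of -2.25 in arr1/10/12 and -1.48 in mock-treated WT, where 9 of 11 were called lower, and the zinc finger members had -1.51 and -0.38, with 3 of 10 called lower. Of all 260 paired members 58.8% were called lower in mock-treated WT, against 8.59% of tested probes. The share was 26.3% for the 1763 paired genes that were not members and 31.5% for the 143 unpaired members. Paired genes come from the table of changed genes, so all tested probes are not a like background for them. A difference between these small groups was not tested. The neighboring genes AT4G11310 and AT4G11320 on chromosome 4, both annotated as cysteine proteinases, differed from WT by -5.27 and -4.84 in arr1/10/12. Probes of such similar genes may share signal.

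The choice was repeated on 1 replicate at a time. The replicate 1 arrays chose 209 probes, of which 75 (35.9%) also met the rule on the replicate 2 arrays, against 1.44% of all tested probes. The replicate 2 arrays chose 489, of which the same 75 (15.3%) met it on replicate 1, against 0.602% of tested probes. The replicates were normalized together. Of the probes chosen on replicate 1, 88.0% were at or below -1 in arr1/10/12 on replicate 2, against 14.4% of tested probes, and 72.7% and 85.6% met the limits in arr1/10 and arr1/12, against 9.65% and 9.69%. The limits in the single mutants held together for 59.3% of them, against 82.1% of tested probes. On replicate 2 the medians of these probes were -0.26 for arr1, 0.00 for arr10, and -0.38 for arr12. In arr10/12, which took no part in the choice, their median was -0.46 on replicate 2, and that of the probes chosen on replicate 2 was -0.25 on replicate 1. Of the probes chosen on replicate 2, 90.4% met the limit in arr1/10/12 on replicate 1, against 14.5% of tested probes. The limits in arr1/10 and arr1/12 were met by 46.7% and 40.2% of them, against 6.99% and 6.83%, and those in the single mutants together by 68.9%, against 81.1%.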

How the data were processed

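Root RNA was measured on 20 one-colour arrays (Agilent Feature Extraction 10.7.1.1, per the file headers), 2 per group, grouped by the labels. The authors deposited for each spot a background-subtracted intensity, and a table of log2 values that equals quantile normalized log2 median pixel intensities. Intensities were log2 transformed, quantile normalized over non-control spots of all arrays, and averaged per probe without outlier spots. The test, limma 3.58.1 in R 4.3.3, was run on the probes that were well above background on every array of 1 or more groups. It used 1 fit with 1 coefficient per group (10 residual and 2.11 prior degrees of freedom) and was two-sided, with calls at an adjusted p (Benjamini-Hochberg) under 0.05. The number of arrays limits the precision. P-values rest on the spread between the 2 biological replicates of a group, pooled over the 10 groups and moderated across probes.

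Gene names came from the study's gene table, read for identity only, in a shortened copy. For 2072 genes a single spot of the deposited table carried the gene's values (tolerance 0.0005), and symbols were updated from RefSeq. ARR5, NAC101, and SHY2 were to be left out and did not meet the rule. Contrasts that chose the members are described without a test. The members, gene lists, and tests were chosen with earlier results of these data known. Genes given on every array were, of the paired members, the 3 lowest in arr1/10/12 on each list, the 5 lowest and 5 highest in arr10/12, and the 5 with the highest WT signal. One gene that this rule names is not reported here. The deviations of replicate 1 from the group mean correlated in all 28 pairs of untreated groups (0.17 to 0.52), which share slides, so replicate numbers pair these arrays, and a replicate block was fitted as an alternative. The tests were tried on simulated data. Other alternatives were other scalings, background correction, the deposited table, filters, fits, and the methods' t-test. For normexp, the median pixel signal was used. Promoter motifs were not analysed here.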

Additional observations from a re-analysis of the deposited data

How the results depend on the processing

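The number of members was 403 and lay between 209 and 489 with 1 replicate of every group left out, of which 153 and 222 were among the 403. It fell to 171 when arr10/12 also had to be at or below -0.5, and was between 273 and 404 under the other scalings and filters. In arr10/12 against WT, 1 member was called, where 31 of all tested probes were called lower and 73 higher. The count of members was 3 with normexp (36 tested probes lower and 94 higher) and 3 with the authors' table (34 and 98). It was 10 with the replicate block (189 and 422). It was 4 among probes well above background on all 20 arrays, 5 with array weights, and 2 against the single mutants. It was 0 in a fit on the 4 arrays, 103 by the methods' t-test with no adjustment, and 0 after Benjamini-Hochberg adjustment. It was 0 to 1 with 1 array left out, and the median of -0.46 then ranged from -0.57 to -0.36. In arr10/12 against mock-treated WT, 112 members were called in either direction, 6 in the fit on 4 arrays, 57 by the t-test, 0 after adjustment, and 43 to 138 with 1 array left out. In mock-treated against untreated WT, 200 were called, 25 in the fit on 4 arrays, 115 by the t-test, 0 after adjustment, and 115 to 200 with 1 array left out. The fit on 4 arrays and the t-test have fewer degrees of freedom, and the causes of the other shifts were not tested. By unadjusted limma, 5443 of the 34033 tested probes had p under 0.05 in arr10/12 against WT. Counts by the t-test and in the fits on 4 arrays are given without the share of all tested probes. They cannot be read as a trait of the members. With the replicate block, 134 members were called in arr10/12 against mock-treated WT, where 2843 tested probes were called lower and 2947 higher. In mock-treated against untreated WT it was 226 members, with 4415 tested probes called lower and 3407 higher.

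Of single genes, values near 0 changed sign with 1 array left out. In arr10/12 these ranged from -0.40 to 0.04 for MYB10, -0.13 to 0.01 for CYP705A5, -0.25 to 0.00 for SEOa, -0.29 to 0.88 for RSH4, -0.12 to 0.26 for AT5G37940, and -0.54 to 0.22 for AT4. In mock-treated WT they ranged from -0.08 to 0.17 for SEOa, -0.99 to 0.69 for SCRL28, and -0.43 to 0.01 for AT4. SCRL28 was also 0.02 with 75th percentile scaling and 0.00 with normexp.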

Other observations

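The mirror image of the rule, for probes well above background in arr1/10/12 that were higher in the double and triple mutants by the same limits, was met by 108 probes, against 403 for the decline. None of the 108 could be paired with a gene. The pairing used a shortened gene table, whose paired genes outside the members had a median of -1.15 in arr1/10/12. The lack of a pairing can therefore not be read as a trait of the rising probes. Their median was 2.03 in arr1/10/12, 0.55 in arr10/12, and 0.29 in mock-treated WT, and 101 lay above WT in arr10/12. In arr10/12 6 were called higher (limma, against 0.214% of tested probes), and in mock-treated WT 23 (against 7.18%).

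Of the 403 members, 59 were not well above background on either arr1/10/12 array, and the bounds for these ran from 1.81-fold to 16.2-fold lower than WT. MIF2, a mini zinc finger gene, was among them with 2.47 and 2.41 in arr1/10/12, against 7.67 and 7.70 in WT, at least 15.7-fold lower. In arr10/12 it had 7.15 and 6.74, and it was one of the 10 members called there with the replicate block (limma adjusted p = 0.0393).

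The median signal before normalization was lowest on the arr1/10/12 arrays, with log2 values of 8.65 and 8.21, against 8.92 and 8.75 in WT. The mean log2 signal of the 350 spike-in spots, which do not come from plant RNA, was 11.15 and 10.82 in arr1/10/12, against 10.78 and 10.52 in WT. The part of these values in the members' decline was not tested.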
